A study of Homo sapiens with 24 samples.

Results

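DDIT4 and 9 other genes known to be induced by low oxygen, BNIP3, CA9, VEGFA, ADM, NDRG1, PDK1, SLC2A1, ANKRD37 and HK2, were followed in PANC-1 cells treated with compounds directed at MNK2. DDIT4 was chosen on its measured values, which were higher with the compound CID661578 than with DMSO and varied widely among the DMSO replicates, and the other 9 were named with it so that it could be compared with further hypoxia targets replicate by replicate. The values of DDIT4 with CID661578 and its spread among DMSO plates are therefore given as descriptions without a test. The members and the gene lists used below were chosen with earlier results of these data known. Counts of their genes beside the share of all genes are descriptions for that reason. All 10 genes are among the 54583 genes of the count table. Of these, 8 are among the 12058 genes that had reads in all 24 libraries and were tested, and ANKRD37 and CA9 are not.

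PANC-1 is an established human pancreatic ductal carcinoma line. Over 6 h plates received DMSO, CID661578 at 40 µM or cercosporamide at 5 µM, and each of these 3 treatments had 4 replicates, so that there were 12 plates. Total cytosolic RNA and the RNA bound to more than 3 ribosomes, called polysome-associated RNA here, were sequenced from each plate as Smart-seq2 libraries. No group kept at low oxygen is described. Reads assigned to genes numbered 1592459 for cercosporamide replicate 4 in the polysome fraction and lay between 9268041 and 12184749 in all others. Levels are given as CPM, which are counts scaled to the normalized library size. Without spike-in RNA each level is relative to the rest of its library, and in bulk RNA fewer expressing cells and less RNA per cell cannot be told apart.

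In cells with enough oxygen, prolyl hydroxylases such as EGLN1 mark the HIF alpha subunits HIF1A and EPAS1 for breakdown through VHL. When oxygen is short, these subunits pair with ARNT and bind DNA with the core ACGTG or GCGTG, which raises genes for glucose uptake, glycolysis, acid balance, mitophagy and blood vessel growth. DDIT4, also called REDD1, restrains the growth complex mTORC1 through TSC1 and TSC2, and ATF4, the glucocorticoid receptor and p53 are known to induce it as well as HIF. MNK2 phosphorylates the translation initiation factor eIF4E.

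The labelled cell type was compared with its markers in total RNA of the DMSO plates. The keratins KRT8, KRT18 and KRT19 averaged 5199, 3374 and 1474 CPM and vimentin (VIM) 1059 CPM, whereas KRT7 averaged 19.5 and EPCAM 8.32 CPM (n = 4). CDH1 had between 0 and 7 reads in a library. Of the markers of other cells, INS, GCG, PRSS1, CPA1, PTPRC and DCN had 0 reads in each of these libraries, which allows up to 0.311 CPM in the library where 3 reads weigh most, a limit that covers counting error only. CELA3A had 2 to 5 reads, PECAM1 0 to 2 and COL1A1 21 to 31. With cercosporamide, KRT18, KRT19 and EPCAM rose in polysome-associated RNA, by log2 0.57, 0.59 and 0.61 (adjusted p = 0.054, 0.0459 and 0.113, edgeR's quasi-likelihood test). They were 3 of 6 tested epithelial and PANC-1 markers, against 18.3% of all genes called higher, and KRT7, KRT8 and VIM were not called. The part of KRT18, KRT19 and EPCAM in the cercosporamide results was not tested.

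Per kb of the canonical transcript, the members fell into abundant and scarce genes in total RNA with DMSO. ADM had 234 CPM per kb, BNIP3 83.7, DDIT4 52.0 and SLC2A1 26.2. HK2 followed with 0.758, VEGFA with 0.694, NDRG1 with 0.624, ANKRD37 with 0.594, PDK1 with 0.253 and CA9 with 0.0168 CPM per kb. ADM lay above DDIT4 per kb in each of the 4 plates, while the DDIT4 plates spanned so wide a range that its place relative to BNIP3 and SLC2A1 is not settled, and HK2, VEGFA, NDRG1 and ANKRD37 did not differ in level beyond their spread. The counting ignored the strand, so reads of ANKRD37 and CA9 are uncertain where their exons overlap UFSP2 and ARHGEF39 on the opposite strand. BNIP3 has many processed copies, of which BNIP3P1 alone had 242 to 302 reads in the DMSO total libraries against 1275 to 1389 for BNIP3, so part of the BNIP3 reads may be shared with copies.

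DDIT4 (chromosome 10, 72273919 to 72276036, plus strand) had 36.4, 27.4, 269 and 29.8 CPM in total RNA of DMSO replicates 1 to 4. With CID661578 it had 297, 424, 358 and 567 CPM, and with cercosporamide 39.9, 50.7, 215 and 25.4 CPM. Replicate 3 was the highest of both the DMSO and the cercosporamide plates, and all 4 CID661578 plates lay above all 4 DMSO plates, DMSO replicate 3 included. In polysome-associated RNA the DMSO plates had 59.2, 61.2, 519 and 43.5 CPM, the CID661578 plates 702, 1026, 561 and 443 CPM and the cercosporamide plates 55.7, 88.8, 473 and 27.8 CPM. There DMSO replicate 3 lay above CID661578 replicate 4, so the groups overlapped. As means of 4 plates, DDIT4 in total RNA was 411 ± 116 CPM (SD) with CID661578, 90.7 ± 119 with DMSO and 82.7 ± 88.7 with cercosporamide. Since DDIT4 was chosen on its DMSO spread, nothing is read from how near the last 2 lie. In polysome-associated RNA the order was the same, with 683 ± 252, 171 ± 232 and 161 ± 210 CPM.

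**Figure D1:**
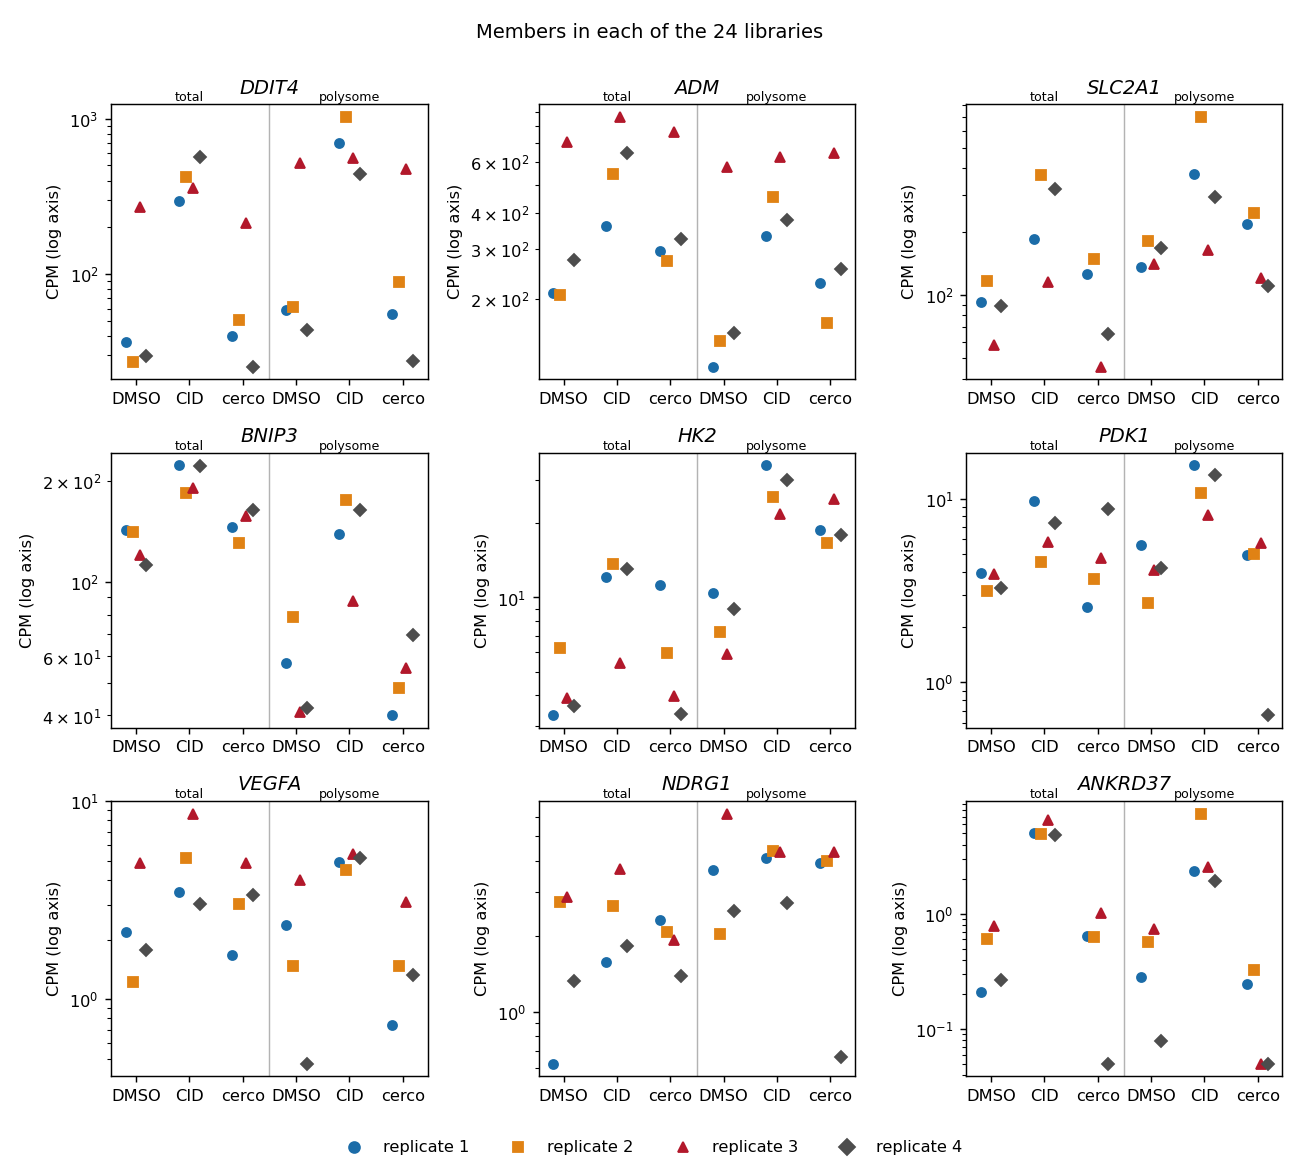
CPM (log axis) of the members in each library, by treatment and fraction, with 1 point per library whose colour and shape give the replicate. DDIT4 and ADM are high in DMSO replicate 3, whereas BNIP3, HK2 and PDK1 are not; ANKRD37 libraries with 0 reads are drawn at 0.05 CPM.

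The promoters of the members were read because HIF binds a short core and the members are compared as its targets. The table of RefSeq promoters used (GRCh38.p14), each of 300 bases from 250 before to 50 after the start, matched 8 of the 10 genes, and VEGFA and NDRG1 had no entry in it. ACGTG and GCGTG were searched on both strands, where CACGTG counts once on each. ACGTG occurred in the windows of DDIT4 (1 match), BNIP3 (2), CA9 (1), ANKRD37 (3) and HK2 (2), and GCGTG in those of DDIT4 (3), BNIP3 (4), ADM (1), SLC2A1 (1) and HK2 (1), while the PDK1 window held neither. Of all 35116 promoters, 21.4% held ACGTG, 36.5% GCGTG and 48.4% at least one of them, so a match in a single window is common, and a match is a description of letters and not a binding site. The stretch from 250 to 45 bases before the start is printed for DDIT4, for ADM, which was also high in DMSO replicate 3, and for BNIP3, ANKRD37 and HK2, with matches on either strand in capitals, except that the second ACGTG of HK2 runs past the end of the stretch. The last GCGTG of DDIT4 lies after the start and so outside the stretch. DDIT4 is shown from chr10:72273674-72273879 (plus strand), BNIP3 from chr10:131981968-131982173 (minus strand), ADM from chr11:10304823-10305028 (plus strand), ANKRD37 from chr4:185396591-185396796 (plus strand) and HK2 from chr2:74833877-74834082 (plus strand).
DDIT4: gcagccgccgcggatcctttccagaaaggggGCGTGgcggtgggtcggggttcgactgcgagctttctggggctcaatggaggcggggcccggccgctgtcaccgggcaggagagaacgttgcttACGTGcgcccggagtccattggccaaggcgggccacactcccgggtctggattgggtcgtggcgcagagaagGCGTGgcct
BNIP3: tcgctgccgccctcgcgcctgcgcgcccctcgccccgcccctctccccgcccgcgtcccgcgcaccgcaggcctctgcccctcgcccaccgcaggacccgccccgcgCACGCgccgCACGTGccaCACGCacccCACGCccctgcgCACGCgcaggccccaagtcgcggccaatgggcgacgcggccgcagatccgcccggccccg
ADM: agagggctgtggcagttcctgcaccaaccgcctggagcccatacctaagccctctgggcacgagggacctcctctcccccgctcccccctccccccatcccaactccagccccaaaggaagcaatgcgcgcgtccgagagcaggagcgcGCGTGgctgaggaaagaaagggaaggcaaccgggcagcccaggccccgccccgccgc
ANKRD37: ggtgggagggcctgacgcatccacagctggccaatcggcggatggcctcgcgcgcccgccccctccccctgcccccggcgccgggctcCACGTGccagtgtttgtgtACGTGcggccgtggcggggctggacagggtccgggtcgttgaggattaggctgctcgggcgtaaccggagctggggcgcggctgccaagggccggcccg
HK2: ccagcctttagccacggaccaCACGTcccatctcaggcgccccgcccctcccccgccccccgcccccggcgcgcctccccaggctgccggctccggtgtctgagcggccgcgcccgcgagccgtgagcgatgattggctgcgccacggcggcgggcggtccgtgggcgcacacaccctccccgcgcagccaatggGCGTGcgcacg

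With CID661578, the difference of DDIT4 from the DMSO plate of the same replicate was log2 3.02, 3.94, 0.41 and 4.24 in total RNA for replicates 1 to 4, and 3.56, 4.06, 0.11 and 3.34 in polysome-associated RNA. The difference was thus smallest in replicate 3 in both fractions. The fitted change was log2 3.11 ± 0.46 (SE) in total and 3.06 ± 0.43 in polysome-associated RNA, given without a test since DDIT4 was chosen on it. Left-out plates moved it between 2.61 (without replicate 4) and 3.78 (without replicate 3) in total RNA, and without the replicate block it was 2.18.

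The secreted vascular peptide adrenomedullin (ADM, chromosome 11, 10305073 to 10307397) had the highest correlation with DDIT4 of the tested members over the total RNA libraries (Pearson r = 0.851). In total RNA it had 210, 208, 708 and 273 CPM with DMSO, 359, 544, 863 and 647 CPM with CID661578 and 294, 272, 764 and 325 CPM with cercosporamide. Replicate 3 was the highest plate of each treatment, and DMSO replicate 3 lay above 3 of the CID661578 plates. Within replicates, the log2 difference of ADM with CID661578 was 0.77, 1.39, 0.29 and 1.24 in total and 1.51, 1.67, 0.11 and 1.31 in polysome-associated RNA, again smallest in replicate 3. The growth factor VEGFA, which drives vessel formation, was scarce, with 2.18, 1.22, 4.86 and 1.77 CPM in total RNA with DMSO and 3.50, 5.16, 8.65 and 3.02 CPM with CID661578. Replicate 3 was again the highest plate with either treatment. Its log2 differences were 0.64, 1.92, 0.81 and 0.71 in total and 1.00, 1.50, 0.41 and 3.01 in polysome-associated RNA, so replicate 3 gave the smallest of the 4 in polysome-associated RNA and not in total RNA.

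For SLC2A1, HK2 and PDK1, replicate 3 was not the highest DMSO plate in total RNA. The glucose transporter SLC2A1 had 93.0, 116, 57.7 and 88.1 CPM in total RNA with DMSO and 184, 373, 115 and 320 CPM with CID661578. Replicate 3 was the lowest plate of both groups, and DMSO replicate 2 lay just above CID661578 replicate 3. Its log2 differences were 0.98, 1.68, 1.00 and 1.86 in total and 1.48, 1.95, 0.22 and 0.81 in polysome-associated RNA. Hexokinase 2 (HK2), which phosphorylates glucose, had 3.32, 6.21, 3.90 and 3.62 CPM with DMSO and 12.1, 13.6, 5.40 and 13.0 CPM with CID661578 in total RNA, where CID661578 replicate 3 lay below DMSO replicate 2. In polysome-associated RNA HK2 was even across plates, with 10.4, 7.22, 5.88 and 8.97 CPM with DMSO and 34.5, 25.5, 21.9 and 30.0 CPM with CID661578, groups that did not overlap. PDK1, the kinase that shuts pyruvate out of the citric acid cycle, had 3.94, 3.15, 3.90 and 3.27 CPM with DMSO and 9.71, 4.50, 5.77 and 7.33 CPM with CID661578 in total RNA. For PDK1 the CPM of the groups did not overlap in either fraction. In total RNA it had only 31 to 45 reads with DMSO and 41 to 111 with CID661578, so the gap there rests on few reads.

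The mitophagy receptor BNIP3 (chromosome 10, 131967684 to 131981967, minus strand) had the smallest spread of the abundant members in total RNA with DMSO. It had 143, 141, 120 and 113 CPM in total RNA with DMSO, 223, 185, 191 and 221 CPM with CID661578 and 146, 130, 157 and 164 CPM with cercosporamide. Every CID661578 plate lay above every DMSO plate, and replicate 3 did not stand apart. In polysome-associated RNA BNIP3 had 57.4, 78.9, 40.9 and 42.2 CPM with DMSO and 139, 175, 87.9 and 165 CPM with CID661578, again without overlap. ANKRD37, an ankyrin repeat protein, had 2, 6, 9 and 3 reads in total RNA with DMSO, 58, 45, 70 and 45 reads with CID661578 and 5, 6, 8 and 0 reads with cercosporamide. All its CID661578 libraries lay above all DMSO libraries in both fractions, by log2 differences of 3.72, 2.68, 2.78 and 3.46 in total RNA, but its counts of 0 in some cercosporamide libraries kept it out of the test. The filter filterByExpr keeps ANKRD37 only through its CID661578 libraries, as no other library had more than 9 reads, so its call under that filter is not read. Without a filter, ANKRD37 was called higher with CID661578 in total RNA (log2 3.61, adjusted p = 3.93e-09, edgeR's quasi-likelihood test). It was also called higher in polysome-associated RNA (3.01, adjusted p = 2.78e-07). NDRG1, a stress-induced cytoplasmic protein, ranged from 0.623 to 2.86 CPM with DMSO and from 1.57 to 3.72 CPM with CID661578 in total RNA, with overlap. The carbonic anhydrase CA9, which balances acid at the cell surface, had between 0 and 7 reads in each of the 24 libraries, and no difference in it was detectable at this depth.

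DDIT4, chosen on this contrast, and ANKRD37, which was not tested, are left out of the counts that follow. All 4 CID661578 plates lay above all 4 DMSO plates for 2 of the 7 other tested members in total RNA, BNIP3 and PDK1, against 0.713% of the genes tested. In polysome-associated RNA this held for 4 of the 7, BNIP3, VEGFA, PDK1 and HK2, against 3.83%. PDK1 had few reads in total RNA, where its raw counts overlapped between the groups. Replicate 3 gave the smallest difference for 2 of the 7 in total RNA (ADM and HK2), against 21.7% of the genes tested. In polysome-associated RNA it did so for 6 of the 7, all except HK2, against 23.9%. Members share their plates and are not independent of each other.

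**Figure D2:**
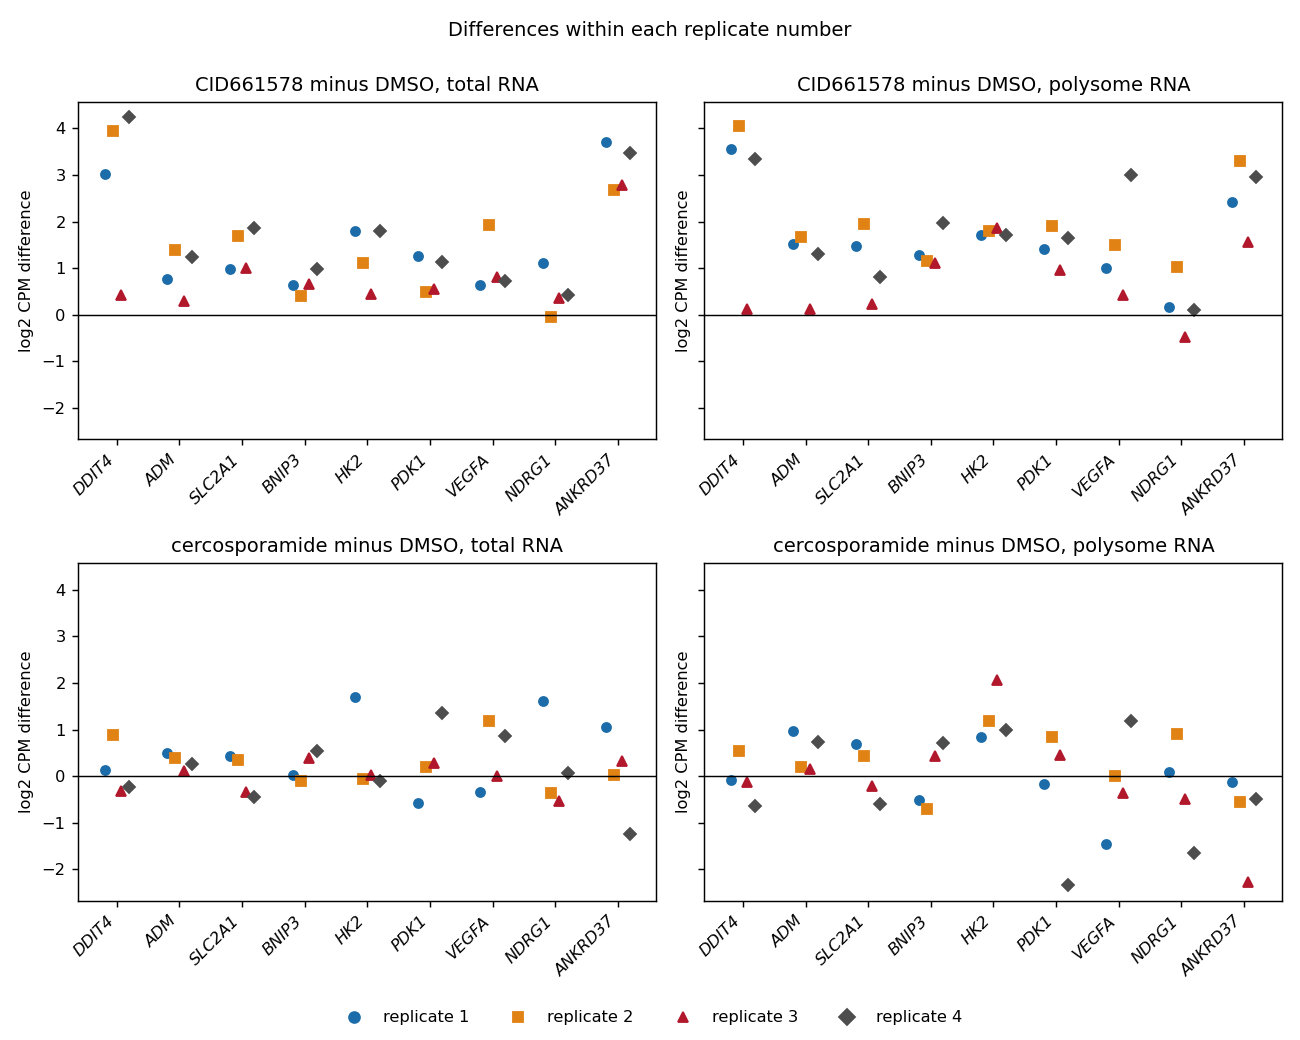
Log2 CPM difference between each CID661578 or cercosporamide plate and the DMSO plate of the same replicate, 1 point per replicate (colour and shape), by member and fraction; CA9 is not drawn. With CID661578, DDIT4 sits near 3 to 4 in replicates 1, 2 and 4 and at 0.41 and 0.11 in replicate 3, whereas BNIP3 and ANKRD37 differ in all 4 replicates.

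The comparison of CID661578 with DMSO asks which members the compound changed. In total RNA, ADM and SLC2A1 rose and the other tested members did not pass. Of the 7 tested members other than DDIT4, 2 were called higher at an adjusted p below 0.15 (edgeR's quasi-likelihood test), against 0.315% of all genes called higher and 0.133% called lower. All 7 had a positive change, and their median was log2 0.94 beside -0.01 for all genes tested. SLC2A1 rose by log2 1.41 ± 0.24 (SE, adjusted p = 0.0106) and ADM by 0.94 ± 0.20 (adjusted p = 0.0629), each higher in 4 of 4 replicates. HK2 had a change of 1.31 ± 0.36 (adjusted p = 0.268), BNIP3 0.66 ± 0.18 (adjusted p = 0.259), VEGFA 1.05 ± 0.38 (adjusted p = 0.546), PDK1 0.90 ± 0.37 (adjusted p = 0.629) and NDRG1 0.42 ± 0.43 (adjusted p = 0.932). At an unadjusted p below 0.05, 6 of the 7 were higher, all but NDRG1, beside 440 of all 12058 genes.

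Some of these calls were lost with fewer plates, with changes of similar size. The ADM call in total RNA was lost without replicate 2 (change 0.78, adjusted p = 0.466) or 4 (0.84, adjusted p = 0.835) and without DMSO replicate 1 (0.93, adjusted p = 0.254), 2 (0.84, adjusted p = 0.189) or 4 (0.89, adjusted p = 0.481), and its adjusted p ranged from 0.00107 to 1.0 over all alternatives. SLC2A1 was not called without replicate 4 (change 1.23, adjusted p = 0.161, range 1.68e-07 to 0.752). HK2 passed in 5 alternatives, without replicate 3 (adjusted p = 0.143, range 0.0276 to 1.0), with DESeq2 (adjusted p = 0.0404), without a filter (adjusted p = 0.0276), with DMSO and CID661578 alone (adjusted p = 0.0617) and with the GC trend removed (adjusted p = 0.0447). BNIP3 passed with DESeq2 (adjusted p = 0.0499, range 0.0185 to 1.0) and with the GC trend removed (adjusted p = 0.0185).

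In polysome-associated RNA, 6 of these 7 members rose with CID661578, all but NDRG1, against 6.16% of all genes called higher and 3.96% called lower. The median of the 7 was log2 1.36, beside -0.01 for all genes. HK2 rose by 1.79 ± 0.22 (adjusted p = 3.29e-05), PDK1 by 1.53 ± 0.30 (adjusted p = 0.00647), VEGFA by 1.47 ± 0.39 (adjusted p = 0.0443), BNIP3 by 1.36 ± 0.22 (adjusted p = 0.000889), ADM by 1.17 ± 0.23 (adjusted p = 0.00569) and SLC2A1 by 1.11 ± 0.23 (adjusted p = 0.0098). Each of the 6 was higher in 4 of 4 replicates. NDRG1 had a change of 0.16 ± 0.32 (adjusted p = 0.819). HK2 kept differences of 1.71, 1.79, 1.87 and 1.72 in the 4 replicates, the narrowest range of the 6, while those of DDIT4 ran from 0.11 to 4.06. The VEGFA call was lost without replicate 4, where its change was 1.01 (adjusted p = 0.226, range 0.00283 to 0.383 over all alternatives), and without DMSO replicate 4 (change 1.03, adjusted p = 0.184). Without the replicate block the calls of VEGFA (change 1.28, adjusted p = 0.383), ADM (0.85, adjusted p = 0.576) and SLC2A1 (1.30, adjusted p = 0.199) were lost too.

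**Figure D3:**
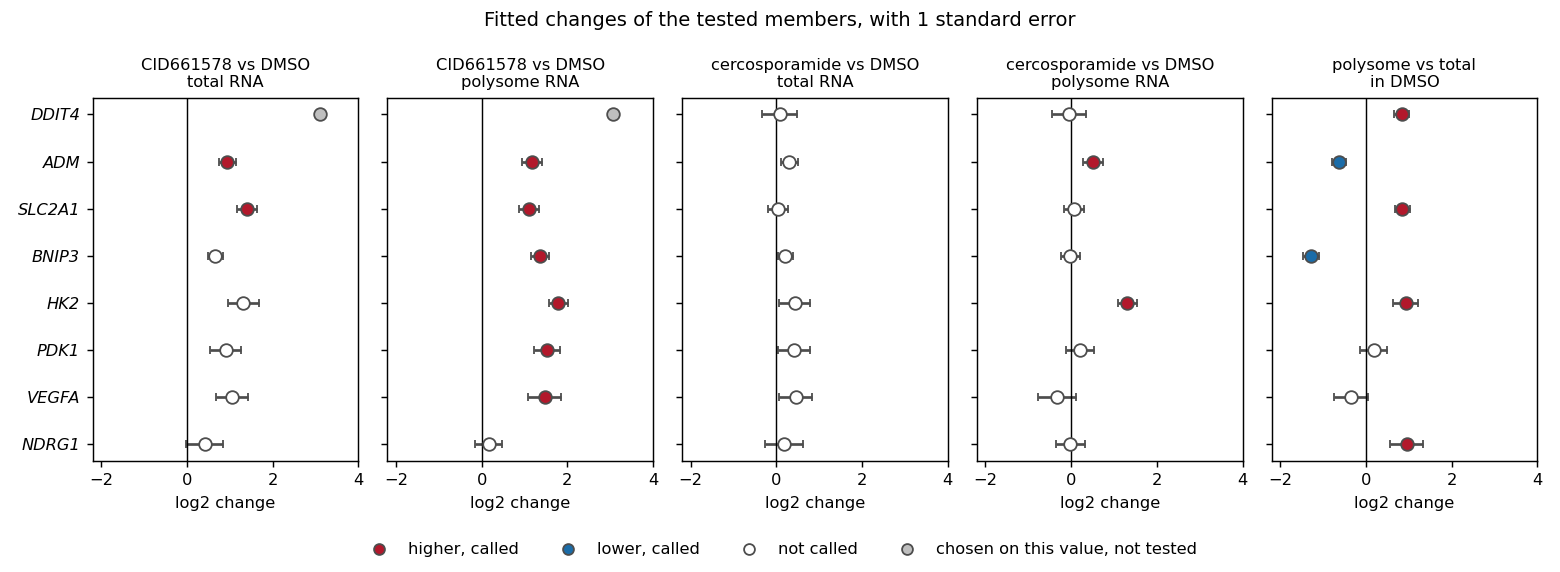
Fitted log2 change (points) with 1 standard error (bars) of the 8 tested members, for each compound against DMSO by fraction and for polysome-associated against total RNA with DMSO; red (higher) and blue (lower) points passed an adjusted p below 0.15, and the grey DDIT4 points with CID661578, drawn without bars, were not tested. The CID661578 changes lie above 0 for all 8 in both fractions, and with cercosporamide HK2 and ADM in polysome-associated RNA were called.

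Cercosporamide was compared with the same DMSO plates. In total RNA 0 of the 8 tested members were called in either direction by edgeR, and 0 by DESeq2, against 0.29% of all genes called higher and 0.0912% called lower. At an unadjusted p below 0.05 there were also 0, beside 797 of all 12058 genes higher and 563 lower. Their changes lay between log2 0.03 for SLC2A1 and 0.45 for VEGFA, with a median of 0.26. DDIT4 changed by 0.08 ± 0.41 (adjusted p = 0.972), with differences of 0.13, 0.88, -0.33 and -0.23 in the 4 replicates. The wide DMSO spread that chose DDIT4 enters this test, so nothing is read from the missing call. Without DMSO replicate 3 the fitted change was 0.64, and without DMSO replicate 2 it was -0.17 (adjusted p from 0.725 to 1.0 over all alternatives). No member had all 4 cercosporamide plates above all DMSO plates in total RNA, where 2.36% of the genes tested did.

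In polysome-associated RNA, HK2 and ADM rose with cercosporamide, 2 of 8 members, against 18.3% of all genes called higher and 13.8% called lower, so nothing is read from this count. HK2 had 18.7, 16.6, 25.1 and 17.9 CPM with cercosporamide, above every DMSO plate, and it was the only member without overlap there (8.43% of the genes tested). It rose by log2 1.31 ± 0.23 (adjusted p = 0.000383), with differences of 0.84, 1.18, 2.06 and 0.98. ADM rose by 0.51 ± 0.22 (adjusted p = 0.117) in 4 of 4 replicates. That call was lost without replicate 1 (change 0.36, adjusted p = 0.376) or 4 (0.37, adjusted p = 0.332), without DMSO replicate 1 (0.38, adjusted p = 0.303), 2 (0.46, adjusted p = 0.223) or 4 (0.45, adjusted p = 0.202) and without the shallow cercosporamide replicate 4 library (0.43, adjusted p = 0.258), over a range of adjusted p from 0.0333 to 0.675. DDIT4 changed by -0.06 ± 0.40 (adjusted p = 0.937), and by 0.38 without DMSO replicate 3 (adjusted p from 0.641 to 0.983 over all alternatives). As in total RNA, the DMSO spread that chose DDIT4 enters this test, so nothing is read from the missing call. BNIP3 had 40.1, 48.4, 55.4 and 69.5 CPM, overlapping its DMSO plates, and a change of -0.02 ± 0.22 (adjusted p = 0.966). Whether the compounds differ in their effect on any member was not tested.

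A change in polysome-associated RNA beyond that in total RNA (TE) tells whether loading on ribosomes moved apart from the RNA level. With CID661578, edgeR called 0 of the 7 members other than DDIT4 at an adjusted p below 0.15 and more than 1.2-fold, against 0.00829% of all genes called higher and 0.199% called lower, and DESeq2 called 0. At an unadjusted p below 0.05, 1 of the 7 was higher, beside 593 of all 12058 genes. It was BNIP3, at log2 0.71 ± 0.23 (unadjusted p = 0.00582, adjusted p = 0.487, edgeR). DDIT4 changed in TE by -0.14 ± 0.26, a description, since its polysome and total values chose it. This sign was not stable, as it was 0.10 without replicate 4. With cercosporamide, 0 of the 8 members were called by edgeR and 0 with DESeq2, where 15.8% of all genes were called higher and 12.6% lower. At an unadjusted p below 0.05 there were 0 members, beside 2005 of all 12058 genes higher and 1628 lower. HK2 had the largest TE change of the 8, 0.84 ± 0.41 (adjusted p = 0.171), which passed without replicate 1 (1.46, adjusted p = 0.0369, range 0.0369 to 0.587). With the GC trend removed, HK2 (1.00, adjusted p = 0.0851) and ADM (0.48, adjusted p = 0.128) were called higher and BNIP3 (-0.67, adjusted p = 0.0448) lower. DDIT4 had -0.20 ± 0.26 (adjusted p = 0.65).

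Among the DMSO plates alone, polysome-associated and total RNA of the same plate show how each mRNA was loaded without a compound, a measure that did not choose the members. DDIT4, SLC2A1, HK2 and NDRG1 were higher in polysome-associated RNA, and BNIP3 and ADM were lower, against 27.7% and 30.6% of all genes. DDIT4 was higher by log2 0.84 ± 0.17 (adjusted p = 0.000132), with differences of 0.70, 1.16, 0.95 and 0.54 in the 4 plates, so that replicate 3 did not stand apart in this ratio. SLC2A1 was higher by 0.85 ± 0.17 (adjusted p = 0.000127), HK2 by 0.93 ± 0.29 (adjusted p = 0.00736) and NDRG1 by 0.95 ± 0.40 (adjusted p = 0.0468). NDRG1 was not called without replicate 1 (0.56, adjusted p = 0.325, range 0.00408 to 0.325). BNIP3 had a log2 difference of -1.28 ± 0.18 (adjusted p = 2.84e-07) and ADM one of -0.63 ± 0.17 (adjusted p = 0.002), each lower in 4 of 4 plates. Without the replicate block the calls of DDIT4 (adjusted p = 0.408, range 1.23e-06 to 0.408), NDRG1 (adjusted p = 0.151) and ADM (adjusted p = 0.464, range 0.000115 to 0.464) were lost. VEGFA (-0.36 ± 0.40, adjusted p = 0.488) and PDK1 (0.18 ± 0.31, adjusted p = 0.655) did not pass.

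Among the DMSO plates, the members spread very unequally in total RNA. The SD of log2 CPM over the 4 plates was 1.57 for DDIT4, a value above that of 99.9% of the genes tested, whose median was 0.388. ADM had 0.837 (above 93.1%), VEGFA 0.779 (90.8%) and NDRG1 0.903 (95.1%), whereas SLC2A1 had 0.422 (56.0%), HK2 0.387 (49.7%), BNIP3 0.168 (9.26%) and PDK1 0.160 (8.20%). Among the 500 genes nearest in level to each, the shares were 99.6% for DDIT4, 98.4% for ADM, 84.0% for VEGFA, 85.6% for NDRG1, 72.0% for SLC2A1, 34.4% for HK2, 19.0% for BNIP3 and 4.2% for PDK1. With CID661578 the SD of DDIT4 was 0.395, above 39.8% of all genes and 60.6% of those nearest in level, and with cercosporamide 1.33, above 97.5% and 99.2%. In polysome-associated RNA with DMSO the SD was 1.65 for DDIT4, 1.13 for VEGFA (above 99.3% of all genes) and 1.06 for ADM (98.9%), and the order of the others differed from total RNA, with 0.660 for NDRG1 (89.1%), 0.443 for BNIP3 (64.3%), 0.407 for PDK1 (57.9%), 0.351 for HK2 (46.4%) and 0.197 for SLC2A1 (13.4%). DDIT4, chosen on this spread, aside, replicate 3 was the highest DMSO plate for 3 of the 7 other tested members in total RNA, VEGFA, ADM and NDRG1, and for the same 3 in polysome-associated RNA, against 28.8% and 27.6% of all genes. It was the highest for 13 of 42 other HIF targets in total and 16 of 42 in polysome-associated RNA. For ATF4 and its targets, which answer amino acid shortage and endoplasmic reticulum stress, it was the highest for 18 of 20 and 20 of 20. For glucocorticoid targets the counts were 4 of 9 and 9 of 9, for p53 targets 5 of 8 and 3 of 8, for the HIF machinery 7 of 13 and 2 of 13, and for mTORC1 regulators 4 of 9 and 1 of 9. Replicate 3 was also the highest cercosporamide plate for 18 of 20 ATF4 targets in total RNA (32.0% of all genes) and the highest CID661578 plate for 13 of 20 (24.7%). What set DMSO replicate 3 apart was not tested, and the files name no date or lane for it.

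**Figure D4:**
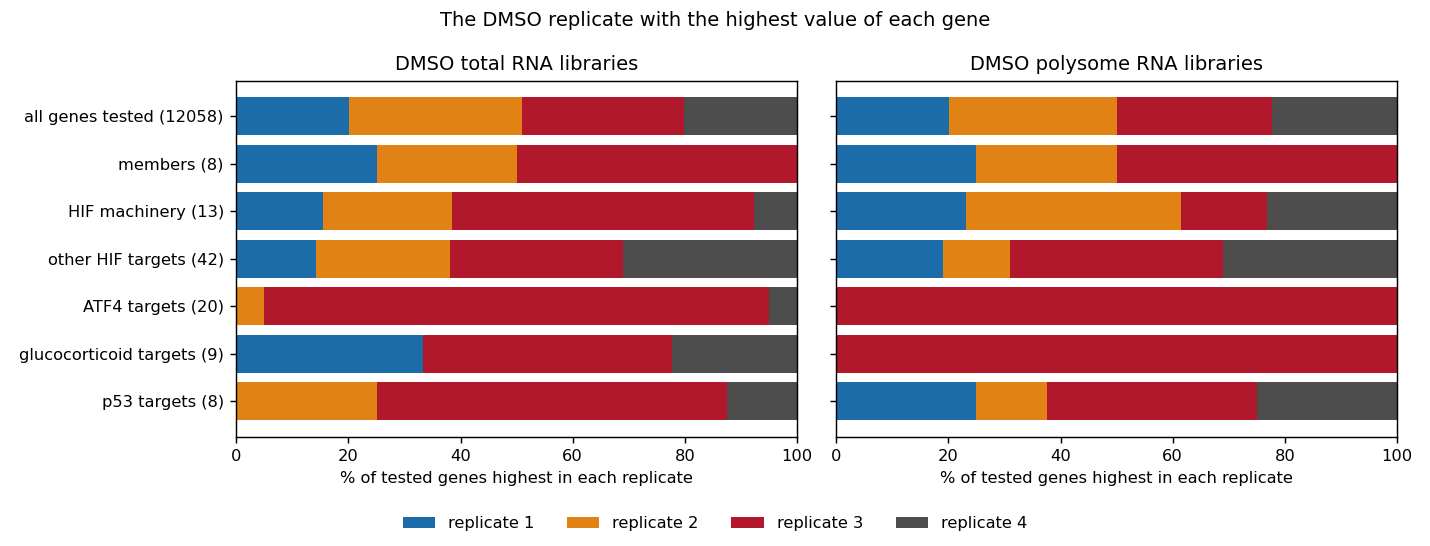
Stacked share (percent) of the tested genes in each list whose highest DMSO plate is replicate 1, 2, 3 or 4, beside all genes tested, in total and polysome-associated RNA; the mTORC1 regulators are not drawn. Replicate 3 is the highest for 28.8% of all genes in total RNA, for 4 of 8 members, among them DDIT4, which was chosen on this spread, and for 18 of 20 ATF4 targets.

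Of 51 other HIF targets, 42 were tested, and 2 of them, ANGPTL4 and STC2, were called higher with CID661578 in total RNA, against 0.315% of all genes. The median of the 42 was log2 0.20, and the count ranged from 1 to 10 over the alternatives, with 10 when the GC trend was removed. In polysome-associated RNA 13 were called higher (ANGPTL4, ERO1A, P4HA1, PLIN2, BNIP3L, HILPDA, STC2, PLOD2, PFKFB4, BHLHE40, INSIG2, KDM3A and AK4) and WSB1 lower, against 6.16% and 3.96% of all genes, with a median of 0.27 and a count called higher from 4 (without the replicate block) to 16 over the alternatives. ANGPTL4, a secreted inhibitor of lipoprotein lipase, had 242, 243, 486 and 177 CPM in total RNA with DMSO and 1186, 3362, 1302 and 2103 CPM with CID661578. DMSO replicate 3 was its highest DMSO plate, yet the groups stayed far apart, and it rose by log2 2.77 ± 0.35 (adjusted p = 0.000843, higher in 4 of 4). The histone demethylase KDM3A rose in polysome-associated RNA (1.41 ± 0.21, adjusted p = 0.000503) and had 0.93 ± 0.36 in total RNA (adjusted p = 0.602). The lipid droplet protein PLIN2 likewise rose in polysome-associated RNA (1.12 ± 0.23, adjusted p = 0.00953) and had 0.93 ± 0.23 in total RNA (adjusted p = 0.161), and the fucosyltransferase FUT11 had 1.09 ± 0.33 in total RNA (adjusted p = 0.38). In total RNA, PLIN2 and FUT11 passed with DESeq2 (adjusted p = 0.0154 and 0.0976), without a filter and with DMSO and CID661578 alone. With the GC trend removed, PLIN2 (adjusted p = 0.0113), FUT11 (adjusted p = 0.0951) and KDM3A (adjusted p = 0.110) passed. With cercosporamide, edgeR called 0 of the 42 in total RNA, against 0.29% of all genes higher and 0.0912% lower. In polysome-associated RNA 11 of the 42 were called higher and 2 lower, against 18.3% and 13.8% of all genes.

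Of the 13 tested genes of the HIF machinery (17 listed), edgeR called 0 with CID661578 in total RNA, against 0.315% of all genes higher and 0.133% lower (median log2 0.08). There EGLN1 had 0.58 ± 0.28 (adjusted p = 0.697), CITED2 0.78 (adjusted p = 0.677) and EP300 -0.81 ± 0.40 (adjusted p = 0.709). In polysome-associated RNA EGLN1, itself a HIF target and the oxygen-dependent hydroxylase, rose by 0.74 ± 0.24 (adjusted p = 0.0949), and the coactivator EP300 fell, with a change of -0.77 ± 0.28 (adjusted p = 0.137), 1 of 13 in each direction against 6.16% and 3.96% of all genes. The count called higher was 0 without replicate 2, 3 or 4, without DMSO replicate 3 or 4, without the replicate block, with the GC trend removed and at an adjusted p below 0.05, so the EGLN1 call is not stable. The EP300 call was not followed over the alternatives, and it does not pass an adjusted p below 0.05. With cercosporamide, HIF1A and CUL2 were called higher in polysome-associated RNA and EP300, CREBBP and ELOB lower. They were 2 and 3 of 13, against 18.3% and 13.8% of all genes, so nothing is read from these counts. Of 9 tested mTORC1 regulators of 13 listed, SESN2, a further inhibitor of mTORC1, was called higher with CID661578 in both fractions (median of the list -0.28 in total RNA). SESN2 had 5.50, 7.12, 117 and 6.80 CPM in total RNA with DMSO and 35.4, 102, 86.9 and 75.2 CPM with CID661578, so its DMSO replicate 3 lay above all 4 CID661578 plates. It rose by 2.37 ± 0.49 (adjusted p = 0.0476), a call lost, at changes of 1.91 to 2.30, without replicate 1 (adjusted p = 0.241), 2 (adjusted p = 0.302) or 4 (adjusted p = 0.767) and without DMSO replicate 1 (adjusted p = 0.277), 2 (adjusted p = 0.187) or 4 (adjusted p = 0.463), over a range of adjusted p from 1.38e-13 to 1.0. Without the replicate block the SESN2 call was lost at a smaller change of 1.13. TBC1D7 had -0.98 ± 0.34 (adjusted p = 0.509) and TSC1 -1.09 ± 0.39 (adjusted p = 0.546) in total RNA.

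Genes of the other known inducers of DDIT4 were counted in the same way. These lists too were chosen with earlier results of these data known, so their counts are descriptions. Of 20 ATF4 targets, all tested, 9 were called higher with CID661578 in total RNA (SESN2, ATF4, TRIB3, PPP1R15A, NUPR1, CHAC1, DDIT3, STC2 and ATF3), against 0.315% of all genes, and the median was log2 1.09. The list shares VEGFA with the members, STC2 with the other HIF targets and SESN2 with the mTORC1 regulators, and ANGPTL4 is both an other HIF target and a glucocorticoid target. TRIB3, a pseudokinase, had 22.2, 19.5, 228 and 11.7 CPM with DMSO and 95.6, 241, 250 and 171 CPM with CID661578 in total RNA. As for DDIT4, its DMSO replicate 3 stood near the CID661578 plates, and it rose by 2.48 ± 0.43 (adjusted p = 0.0135). The transcription factor DDIT3 (CHOP) rose by 1.90 ± 0.29 (adjusted p = 0.00551), ATF3 by 1.93 ± 0.34 (adjusted p = 0.0135) and PPP1R15A by 1.24 ± 0.25 (adjusted p = 0.0408). Without replicate 4, 0 of the 20 were called, and TRIB3 had 1.95 (adjusted p = 0.296, range 1.49e-19 to 1.0), DDIT3 1.75 (adjusted p = 0.155), ATF3 1.68 (adjusted p = 0.257) and PPP1R15A 0.98 (adjusted p = 0.567). TRIB3 was also lost without DMSO replicate 4 (2.13, adjusted p = 0.185). PPP1R15A was lost without replicate 2 (1.19, adjusted p = 0.238) or DMSO replicate 4 (1.16, adjusted p = 0.432). Without the replicate block 0 of the 20 were called in total RNA, where TRIB3 had 1.43. In polysome-associated RNA 10 were called higher, against 6.16% of all genes, with a median of 0.94, and 0 were called higher without the replicate block. With cercosporamide, 1 of the 20 (SLC3A2) was called higher and 2 (SLC7A5 and ATF3) lower in that fraction, against 18.3% and 13.8% of all genes, so nothing is read from these counts.

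Of 9 tested glucocorticoid targets of 12 listed, 4 were called higher with CID661578 in both fractions (TSC22D3, ANGPTL4, DUSP1 and ERRFI1), against 0.315% of all genes in total and 6.16% in polysome-associated RNA, with medians of log2 0.55 in total and 0.35 in polysome-associated RNA. The phosphatase DUSP1 rose by 1.42 ± 0.28 in total RNA (adjusted p = 0.0365) and the EGFR inhibitor ERRFI1 by 1.75 ± 0.26 (adjusted p = 0.00334). DUSP1 was not called without replicate 2 (change 1.33, adjusted p = 0.267) or 4 (1.23, adjusted p = 0.632) or without DMSO replicate 4 (1.24, adjusted p = 0.432), over a range from 5.75e-06 to 0.632. Of 8 tested p53 targets of 12 listed, 2 were called higher in both fractions, against the same shares of all genes, the cytokine GDF15 (2.11 ± 0.37 in total RNA, adjusted p = 0.0135) and the cell cycle inhibitor CDKN1A (0.95 ± 0.23, adjusted p = 0.144), with medians of 0.39 and 0.45. GDF15 was not called without replicate 4 (change 1.71, adjusted p = 0.247) or DMSO replicate 4 (1.94, adjusted p = 0.191), over a range from 2.93e-14 to 1.0. CDKN1A was not called in total RNA without any one of replicates 2, 3 and 4 (adjusted p = 0.579, 0.199 and 1.0) or of the 4 DMSO plates (adjusted p from 0.183 to 0.882), over a range from 0.00373 to 1.0, while its change in these fits lay between 0.76 and 1.07. Without the replicate block the total RNA calls of ERRFI1 (change 1.39), DUSP1 (1.50), GDF15 (1.50) and CDKN1A (0.97) were lost. TNFRSF10B, the TRAIL receptor, had 0.60 ± 0.25 (adjusted p = 0.629). With cercosporamide in polysome-associated RNA, where 18.3% of all genes were called higher and 13.8% lower, 4 of 9 glucocorticoid targets were called higher (ANGPTL4, NFKBIA, SGK1 and ERRFI1) and 1 lower (MT2A), and 1 of 8 p53 targets higher (RRM2B).

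Across the 12 total RNA libraries, 7902 genes were ranked by the correlation of their log2 CPM with DDIT4. The 8 most like DDIT4 were TRIB3 (Pearson r = 0.959), CHAC1 (0.951), STC2 (0.948), SESN2 (0.943), ERRFI1 (0.915), DDIT3 (0.891), CAMTA2 (0.885) and LMO4 (0.880). Over the 12 polysome libraries their r was 0.969, 0.977, 0.950, 0.965, 0.917, 0.872, 0.863 and 0.751. The libraries share treatments and replicates, so these r are descriptions without a test and were chosen as the highest of many. DDIT4 was itself chosen on its rise with CID661578 and its DMSO spread. Genes with the same traits therefore rank high through that choice. None of the 8 is a member. ADM, at r = 0.851, was 15th, BNIP3 (0.650) 142nd, HK2 (0.498) 417th and SLC2A1 (0.418) 693rd. ANKRD37 (0.879), VEGFA (0.741), PDK1 (0.454), NDRG1 (0.432) and CA9 (0.106) were too scarce to be ranked. When the mean of each replicate was removed, r was 0.921 for SLC2A1, 0.936 for ADM and 0.842 for HK2. Without the 2 plates farthest from the DDIT4 median, CID661578 replicate 4 and cercosporamide replicate 4, r was 0.865 for ADM, 0.654 for BNIP3, 0.304 for HK2, 0.180 for SLC2A1 and 0.964 for TRIB3.

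**Figure D5:**
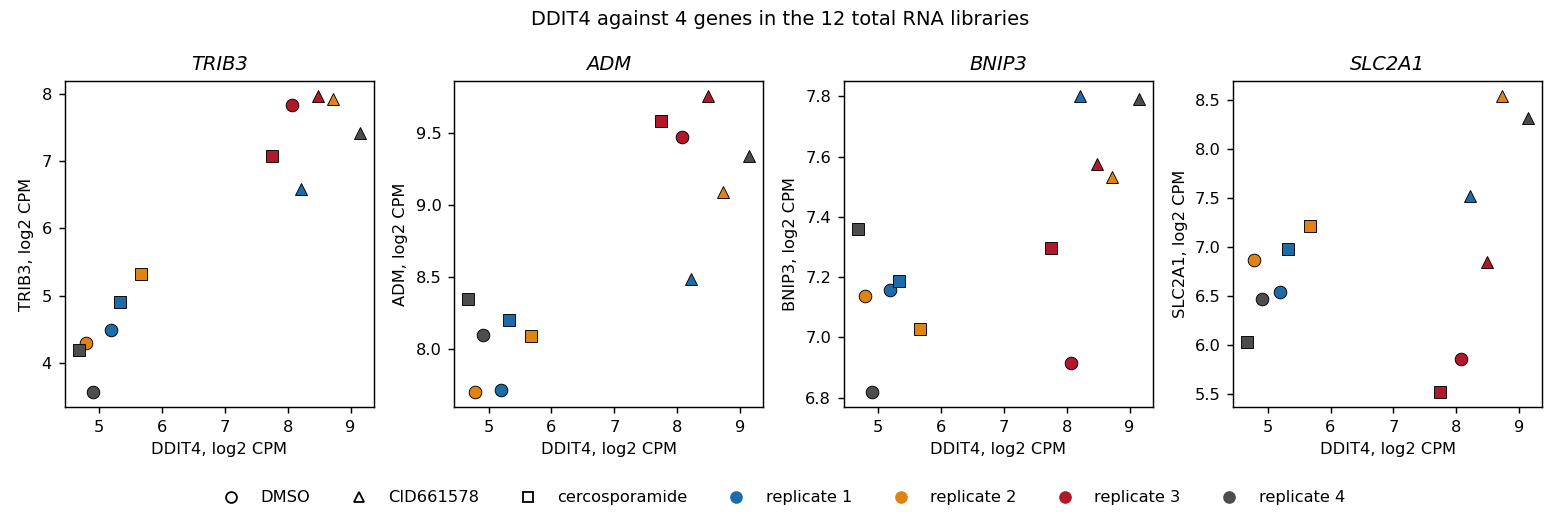
Log2 CPM of TRIB3, ADM, BNIP3 and SLC2A1 against log2 CPM of DDIT4 in the 12 total RNA libraries, 1 point per library, with shape for treatment and colour for replicate. TRIB3 and ADM follow DDIT4 with DMSO replicate 3 beside the CID661578 plates (r = 0.959 and 0.851), whereas for SLC2A1 (r = 0.418) that plate lies low. DDIT4 was chosen on its values in the DMSO and CID661578 plates, and TRIB3 as the gene most like it.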

How the data were processed

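RNA was measured in 24 libraries from 12 plates of PANC-1 cells, as total and as polysome-associated RNA of each plate. The values used are raw read counts per gene, which the authors deposited as 1 table after bcl2fastq 2.20.0.422, FastQC 0.11.8, removal of ribosomal RNA reads, HISAT2 and featureCounts. Counts were fitted with edgeR 4.0.16 in R 4.3.3 (TMM over all libraries, quasi-likelihood F test), after removal of genes with a 0 in any library. Each fraction was fitted on its 12 libraries with treatment and replicate as terms. TE was fitted as the interaction of treatment and fraction with plate terms and a replicate-by-fraction term, and the DMSO polysome and total libraries were compared within plates. P-values were adjusted by Benjamini and Hochberg over all genes tested, and genes were called at an adjusted p below 0.15, for TE also at more than 1.2-fold. CPM use the TMM-normalized library size, and log2 CPM a prior count of 2. The standard error is the absolute log2 change divided by the square root of F.

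Members and gene lists (HIF machinery, other HIF targets, mTORC1 regulators, ATF4, glucocorticoid and p53 targets, and markers) were chosen with earlier results of these data known. Outside the members, genes were named by rule from CID661578 versus DMSO in total RNA: the 3 with the lowest p in each of HIF machinery and mTORC1 regulators, up to 4 with the largest absolute log2 change in each of the 4 target lists (mean log2 CPM not under 3, same sign in 4 of 4 replicates), and the 8 most like DDIT4. Genes named by a list count without values are those called. Likeness was computed for genes whose mean log2 CPM was not under 3. A count of 0 was read as below 3 reads.

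Replicate numbers were taken as blocks, and the differences from the group mean correlated at r above 0.1 in 13 of 16 pairs of libraries with the same number (range -0.0186 to 0.584). Alternatives were DESeq2 1.42.0 size factors and its Wald test, TMM within each fraction or without mitochondrial genes, other filters, no replicate block, DMSO and 1 compound only, an adjusted p below 0.05, removal of a GC trend (GC content known for 95.96% of the genes tested), and leaving out each replicate and each DMSO library. The package anota2seq was not available. Tested on simulated data, the fits returned the folds put in, while the TE test missed many of the smaller ones, so its power is low. It failed the rule first set for it, and that rule was then loosened. The simulated counts had the same dispersion for every gene and no replicate effect. They therefore do not show how well changes are recovered in the real libraries. Promoters were taken from RefSeq (GRCh38.p14). CA9 and ANKRD37 were removed by the filter and described by reads; ANKRD37 was tested under both other filters and CA9 without a filter only.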

Additional observations from a re-analysis of the deposited data

Results flagged for a closer look

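Groups of 4 plates in which 1 plate stood apart were listed by Dixon's ratio, the gap to the next plate over the range of log2 CPM, above its 95% critical value. Chance would mark about 1 in 20 groups. Of 48 groups of the tested members 7 were past it, 3 of them with replicate 3 highest, and of 138 groups of other named genes 14 were, 11 of them with replicate 3 highest. Groups share plates, so they are not independent. SESN2, STC2, ERRFI1 and LMO4 are among the 8 genes chosen as most like DDIT4, which is itself high in DMSO replicate 3, so nothing is read from the number of groups with replicate 3 highest.

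DDIT4 stood apart in DMSO replicate 3 in total (0.875) and polysome-associated RNA (0.862), the spread it was chosen on, and ADM did in polysome-associated RNA with DMSO (0.83). The lowest plate was replicate 4 for NDRG1 in polysome-associated RNA with CID661578 (0.88) and with cercosporamide (0.941) and for PDK1 with cercosporamide (0.925), where that library had few reads. HK2 was lowest in CID661578 replicate 3 in total RNA (0.868).

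Among other genes, DMSO replicate 3 was the highest in total RNA for SESN2 (0.917), PPP1R15A (0.921) and TNFRSF10B (0.861), and in polysome-associated RNA for SESN2 (0.906), ATF3 (0.902), TNFRSF10B (0.887) and STC2 (0.837). Replicate 3 was also the highest for ATF3 in total RNA with CID661578 (0.84), for KDM3A (0.849) and LMO4 (0.859) in total RNA with cercosporamide and for ERRFI1 in polysome-associated RNA with cercosporamide (0.949). KDM3A was highest in DMSO replicate 2 in total RNA (0.965), CDKN1A lowest in CID661578 replicate 1 in total RNA (0.83) and EGLN1 lowest in CID661578 replicate 3 in polysome-associated RNA (0.896).

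The 2 compounds, compared with the same DMSO plates, gave opposite mean log2 differences in all 4 replicates for ATF3 in polysome-associated RNA (1.91 with CID661578 and -1.09 with cercosporamide) and for LMO4 in total RNA (0.60 and -0.26). ATF3 had only 1 read in the shallow polysome library of cercosporamide replicate 4. Its fitted change with cercosporamide in that fraction was -0.73. TRIB3 had a TE change of -0.66 with cercosporamide and of -0.38 with CID661578, the same sign. Whether the compounds differ was not tested.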

How the results depend on the processing

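With CID661578 in total RNA, 2 members other than DDIT4 were called higher. The count was 4 with the DESeq2 Wald test, without a filter and with the GC trend removed, 1 at an adjusted p below 0.05 and 0 without the replicate block. Without a filter the count includes ANKRD37, which the filter had removed. The count was 1 without replicate 2 or without DMSO replicate 1, 2 or 4, 0 without replicate 4 and 3 without replicate 3. In polysome-associated RNA the count of 6 was 3 without the replicate block, where VEGFA, ADM and SLC2A1 were lost. It lay between 5 and 6 with a plate left out and was 7 with filterByExpr or no filter, ANKRD37 included. ANKRD37 passed filterByExpr only through its CID661578 libraries, so nothing is read from the 7 under that filter. Both calls in total RNA were lost without the replicate block, ADM at an adjusted p of 1.0 (range 0.00107 to 1.0) and SLC2A1 at 0.752 (range 1.68e-07 to 0.752).

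With cercosporamide in polysome-associated RNA, the count of 2 was 1 with DESeq2 size factors, TMM without mitochondrial genes, the DESeq2 Wald test, filterByExpr, no filter, no replicate block, DMSO and 1 compound only and an adjusted p below 0.05. It was also 1 without replicate 1 or 4, DMSO replicate 1, 2 or 4 or cercosporamide replicate 4, and in each case the call of ADM was lost. In TE, the count of 0 called higher was 2 with the GC trend removed (HK2 1.00 and ADM 0.48) and 1 without replicate 1, and the count of 0 called lower was 1 with the GC trend removed (BNIP3 -0.67). In DMSO polysome against total RNA, without the replicate block 2 in place of 4 members were called higher and 1 in place of 2 lower.

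The TE change of DDIT4 with CID661578, -0.14, was 0.12 with the GC trend removed and 0.10 without replicate 4 (from -0.36 to 0.10 with a replicate left out). Of the 8 genes most like DDIT4, 2 were shared with Spearman's rho and 4 with replicate means removed. A further 49 log2 values of members that were called in neither fit changed sign.

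Over all alternatives, genes called with CID661578 ranged from 3 to 162 higher and 2 to 77 lower in total RNA and from 33 to 1170 higher and 36 to 885 lower in polysome-associated RNA. With cercosporamide they ranged from 0 to 567 higher and 0 to 192 lower in total RNA, and from 1244 to 2057 and 677 to 2260 in polysome-associated RNA. With a plate left out, the CID661578 counts in polysome-associated RNA were lowest without DMSO replicate 3, at 211 higher and 114 lower. ATF4 targets called higher with CID661578 in total RNA, 9, were 0 without the replicate block and 0 to 10 with a plate left out. Without the replicate block, polysome-associated RNA also had 0 ATF4 targets in place of 10, and both fractions had 1 glucocorticoid target in place of 4 and 0 p53 targets in place of 2. In TE, counts ranged from 0 to 97 higher and 8 to 244 lower with CID661578, the highest of both without replicate 1, and from 1045 to 1934 higher and 771 to 1896 lower with cercosporamide, the lowest of both without replicate 2.

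These results come from 1 cell line, 1 time point and 1 dose of each compound, with 4 plates per group. No group was kept at low oxygen, and protein was not measured. What the DMSO plates differed in is not recorded, and the cause was not tested.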
